A study of Mus musculus with 12 samples.

Results

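The genes described here encode the machinery of oxidative phosphorylation in the inner membrane of mitochondria. They were taken by name from the array, as names that begin with Nduf, Uqcr or Atp5, or with Cox followed by a digit from 4 to 8, together with Sdha, Sdhb, Sdhc and Sdhd. The rule gave 92 of the 27373 gene names on the array and 134 of its 41174 probes. They comprised 37 members of complex I, 7 Ndufaf assembly factors of complex I, 4 members of complex II, 8 of complex III, 18 of complex IV and 18 of complex V. Subunits of these complexes made up 81 of the names. The others were the 7 assembly factors, the related proteins Cox7a2l, Atp5s and Atp5sl, and the pseudogene Atp5c1-ps. Measured values played no part in the rule.

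Complex I takes electrons from NADH and complex II takes them from succinate in the citric acid cycle. Complex III passes them on through cytochrome c to complex IV, which reduces oxygen, and complex V uses the resulting proton gradient to make ATP. Most subunits are encoded in the nucleus and are needed in every cell with mitochondria. A few subunits of complex IV have a second gene that is used mainly in heart and skeletal muscle, and back skin of the mouse includes a sheet of striated muscle, the panniculus carnosus. Follicles that grow a hair shaft contain dividing matrix cells, so the cell types of the tissue shift with the hair cycle.

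The RNA came from whole back skin of male C57BL/6 mice, 8 weeks-old at the start, that were shaved and from the next day received 200 µL daily on the back. MXD is 3% minoxidil, N-CE is 10% of a cell extract of the cactus Notocactus ottonis isolated by cold vacuum, and VC is their vehicle of propylene glycol, ethanol and water at 5:3:2. The study was on hair growth, with minoxidil as the known agent. Each treatment and week (1W, 2W and 3W) was 1 pool of RNA from 6 mice, hybridised with the VC pool of that week on 2 arrays with exchanged dyes. MXD and N-CE of a week therefore shared the VC pool. The sample labels name no slide, so week and any effect of the slide cannot be told apart. With 1 pool per group, the SD given after ± is over the 2 arrays (n = 2), measures technical error alone, and no test between groups was possible within a week. In RNA of whole tissue, fewer cells of a type and less RNA per cell cannot be told apart.

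Each of the 12 arrays held 43379 spots for mouse transcripts, of which 57.0% to 69.6% were well above background in a channel and 0 were saturated. Of the defining markers of skin, at least 13 of 14 for the hair shaft and 5 of 8 for the epidermis were measured in every comparison. The hair shaft list also holds Krt71, Krt25 and Tchh, which are genes of the inner root sheath. All values below are log2 folds of treated over VC, with each gene represented by its brightest probe. Of the 92 members, 89 were well above background in both groups on both arrays of all 6 comparisons, so no member passed through 1 group alone. Cox4i2, Cox7b2 and Cox8c, isoforms of complex IV that are restricted to other tissues, were not well above background in any comparison and got no value. Spots marked as outliers removed 2 members at MXD 1W, 3 at N-CE 2W and 8 at N-CE 3W. The number of arrays limits the precision of every value.

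The results turn on the paired isoforms of cytochrome c oxidase, so the bases before the start of those genes are shown first. RefSeq windows on GRCm38.p6, from 250 bases before to 50 after a gene's start, were matched to 76 of the 92 members. Within the whole windows, both strands were searched for the core CGCATGCG of NRF1, TCAAGGTCA of ERR, CCGGAAG of ETS factors, CTAAAAATA of MEF2, AAGATGGCG of YY1 and the E-box CAGCTG of muscle factors. The 250 bases before the start follow, 5′ to 3′, with matches in capitals. Cox7a1 and Cox8b are the muscle isoforms, Cox7a2 and Cox8a the general ones, and Cox6a1 is the general partner of Cox6a2.
Cox7a1, chr7:30183921-30184170, + strand: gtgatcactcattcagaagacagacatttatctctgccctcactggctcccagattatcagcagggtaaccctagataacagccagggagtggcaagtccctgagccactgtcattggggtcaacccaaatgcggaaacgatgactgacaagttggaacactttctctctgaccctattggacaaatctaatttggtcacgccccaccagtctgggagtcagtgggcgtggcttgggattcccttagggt
Cox7a2, chr9:79759854-79760103, - strand: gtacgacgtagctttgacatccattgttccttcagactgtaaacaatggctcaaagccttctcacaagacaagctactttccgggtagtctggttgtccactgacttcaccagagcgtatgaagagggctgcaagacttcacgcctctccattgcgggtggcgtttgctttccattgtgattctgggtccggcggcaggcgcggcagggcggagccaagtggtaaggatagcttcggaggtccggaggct
Cox8b, chr7:140900447-140900696, - strand: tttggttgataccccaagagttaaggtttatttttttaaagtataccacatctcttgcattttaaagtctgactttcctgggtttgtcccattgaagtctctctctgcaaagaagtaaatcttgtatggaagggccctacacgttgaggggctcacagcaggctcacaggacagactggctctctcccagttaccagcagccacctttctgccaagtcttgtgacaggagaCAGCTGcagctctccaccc
Cox8a, chr19:7217617-7217866, - strand: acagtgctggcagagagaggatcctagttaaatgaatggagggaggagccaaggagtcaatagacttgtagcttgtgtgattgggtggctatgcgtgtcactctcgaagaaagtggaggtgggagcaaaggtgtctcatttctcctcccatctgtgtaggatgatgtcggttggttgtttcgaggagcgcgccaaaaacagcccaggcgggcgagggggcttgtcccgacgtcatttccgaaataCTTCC
Cox6a1, chr5:115348959-115349208, - strand: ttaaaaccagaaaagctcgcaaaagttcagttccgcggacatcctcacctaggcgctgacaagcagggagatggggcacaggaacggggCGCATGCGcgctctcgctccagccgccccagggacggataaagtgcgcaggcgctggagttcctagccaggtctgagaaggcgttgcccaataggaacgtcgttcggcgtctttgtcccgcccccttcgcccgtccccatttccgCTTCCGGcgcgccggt
The muscle isoforms Cox7a1 and Cox8b had fewer CG dinucleotides in these bases, 4 and 1, than their general partners Cox7a2 and Cox8a, with 14 and 11. Cox6a1 had 26, and Cox6a2 was not among the 76 members matched. The median was 14.8 over the 76 members and 6 over 27025 genes. Cox8b had the E-box at 19 bases before the start, and no searched letters were in the windows of Cox7a1 and Cox7a2. Cox6a1 had the NRF1 core, and an ETS match lay near the start of both Cox6a1 and Cox8a, in Cox8a running past the last printed base. Among the 76 members, 11 (14.5%) held the NRF1 core against 2.07% of all genes. The ETS letters were in 17 members (22.4%, against 9.93%), the YY1 letters in 8 (10.5%, against 1.64%) and the ERR letters in 2 (2.63%, against 0.466%). None of the 76 held the MEF2 letters (0.588% of all genes), and 6 held the E-box (7.89%, against 18.3%). These matches describe letters in a window and are not evidence of binding.

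The members as a set lay lowest at MXD 2W. Their median log2 fold there was -0.34 (-0.33 and -0.32 on the 2 arrays), with 83 of 89 measured members (93.3%) below 0, while the median of all 18752 gene names measured was 0.03 and 47.9% of those lay below 0. At MXD 1W the median was -0.13 (-0.09 and -0.17), with 75 of 87 below 0. It was -0.03 at MXD 3W, with 53 of 89 below 0. In the N-CE pools the median was 0.00 at 1W, with 45 of 89 below 0, -0.06 at 2W, with 71 of 86 below 0, and -0.04 at 3W, with 57 of 81 below 0. Over all gene names, the share below 0 in the comparisons other than MXD 2W ran from 47.0% (N-CE 1W) to 51.0% (MXD 1W). Of the 87 members with all 3 MXD values, 66 had their lowest value at 2W, 20 at 1W and 1 at 3W. Values of all gene names also spread most at MXD 2W. Quartiles there were -0.34 and 0.32, so the median of the members lay near the lower quartile. For all gene names in MXD 1W the quartiles were -0.16 and 0.15, and in MXD 3W they were -0.10 and 0.10. How many of all gene names had their lowest MXD value in week 2 is not given here.

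**Figure D1:**
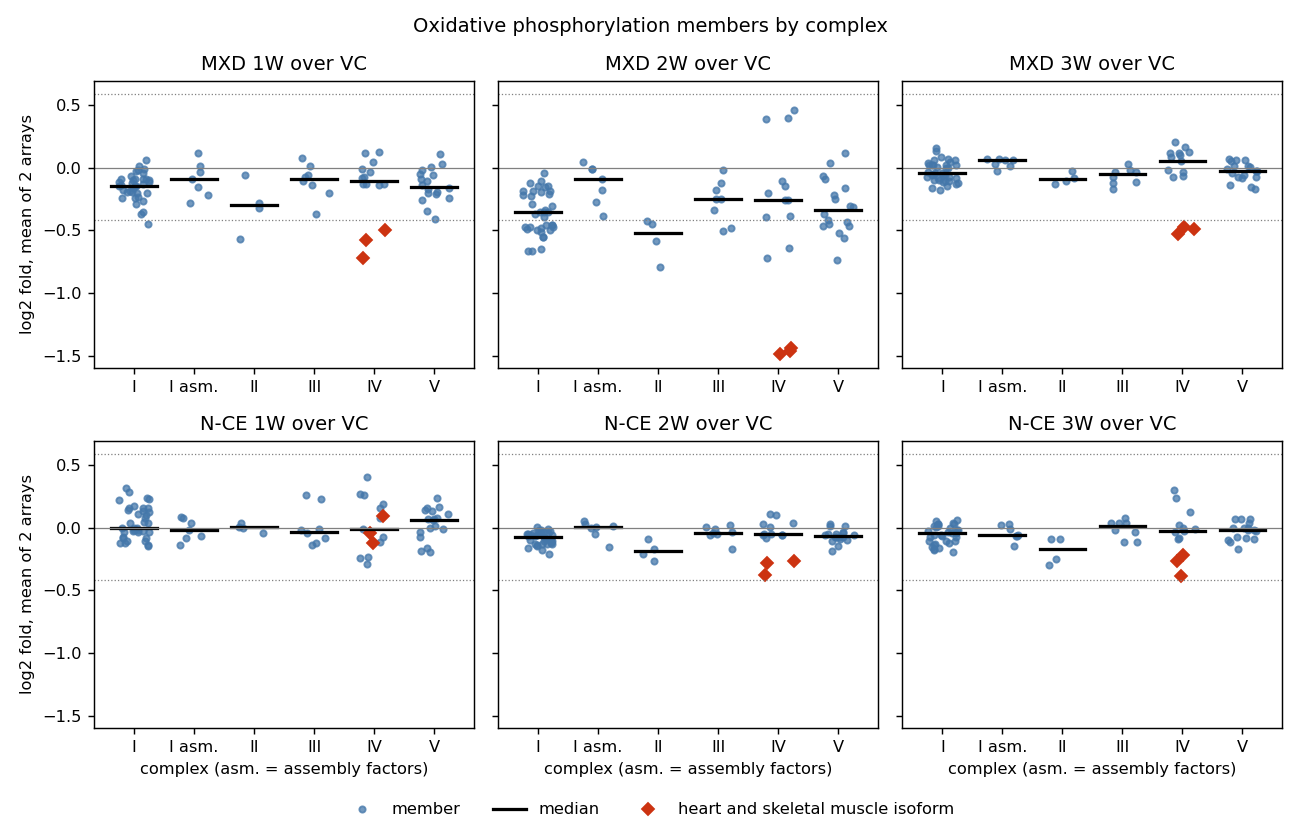
Log2 fold of each measured member (points, mean of 2 arrays) by complex in the 6 comparisons, with the median of each complex as a black bar, the muscle isoforms of complex IV as red diamonds and the folds of 0.75 and 1.5 as dotted lines. Complexes I, II, III, IV and V all have medians below 0 at MXD 2W, and the 3 muscle isoforms lie apart from the rest between -1.49 and -1.43.

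A gene was called up-regulated or down-regulated where each array of the dye swap gave a deposited P under 0.01, the signs matched, and the mean fold was above 1.5 or below 0.75. These P values come from the error model of a spot and do not describe the mice. At MXD 2W, 9 of 89 members (10.1%) were down-regulated and 0 were up-regulated. Of all gene names measured in that comparison, 10.0% were down-regulated and 6.21% were up-regulated, so the share of members called lower was that of the array as a whole. A further 26 members had a mean fold below 0.75 without the P on both arrays. By fold alone, 35 of 89 members and 4125 of 18752 gene names were below 0.75. Judged on 1 array alone, 21 members passed on array 1 and 13 on array 2. At MXD 1W, 1 of 87 members was down-regulated and 0 up-regulated, where 1.26% and 1.25% of all gene names were. Each array of MXD 1W alone gave 3 down-regulated members. Shares over all gene names on single arrays are not given here, so the single-array counts have none beside them. At MXD 3W no member of 89 was called in either direction, where 0.287% of all gene names were down-regulated and 0.293% up-regulated. None was called in the N-CE comparisons, where the shares over all gene names were 2.78% down-regulated and 0.543% up-regulated for 1W. For 2W the same shares were 0.0752% and 0.118%, and for 3W they were 0.214% and 0.209%.

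At MXD 2W all 37 complex I members had a mean below 0, and 34 of them lay below 0 on both arrays. Their median was -0.36 and their range -0.66 to -0.04. Ndufa5, an accessory subunit, gave -0.54 and -0.78 and was down-regulated at -0.66 ± 0.17. Ndufa6, another accessory subunit, gave -0.61 and -0.69 and was down-regulated at -0.65 ± 0.06. Ndufa4, named for complex I but now counted with complex IV, gave -0.86 and -0.47 and missed the call because its P on array 2 was 0.0254. Of the subunits that carry redox centres, Ndufs1, the large iron-sulfur subunit, was at -0.29 ± 0.13, Ndufv1, which binds NADH, at -0.14 ± 0.06 and Ndufv2, which holds an iron-sulfur cluster, at -0.46 ± 0.08. Ndufc2 was the highest of complex I at -0.04 ± 0.08. The 7 assembly factors, which help build complex I but do not remain in it, had a median of -0.09, with Ndufaf5 lowest at -0.39 ± 0.14 and Ndufaf3 highest at 0.04 ± 0.11.

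Complex II had the lowest median of the 5 complexes at MXD 2W, -0.52, with all 4 members below 0 on both arrays. Sdhd, a membrane anchor, had signals of 19389 in MXD against 38321 in VC on array 1 and 15324 against 23316 on array 2. It was down-regulated at -0.79 ± 0.27, the lowest value of any member outside the muscle isoforms. Sdha, the flavoprotein that oxidises succinate, gave -0.32 and -0.86, so its mean of -0.59 rested mainly on array 2. The other 2 probes of Sdha gave -0.18 ± 0.07 and -0.13 ± 0.09 at MXD 2W. Sdhb, the iron-sulfur subunit, was at -0.42 ± 0.07 and Sdhc, the other anchor, at -0.45 ± 0.01. By its brightest probe, Sdha was the lowest member outside the muscle isoforms at MXD 1W (-0.57 ± 0.04), N-CE 2W (-0.26 ± 0.31) and N-CE 3W (-0.30 ± 0.05). Its other probes gave -0.41 and -0.26 at MXD 1W, -0.22 and -0.29 at N-CE 2W, and -0.24 and 0.04 at N-CE 3W. At MXD 1W it missed the call with a P of 0.00475 on array 1 and 0.0103 on array 2.

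The 8 complex III members had a median of -0.25 at MXD 2W, all of them below 0 and 6 below 0 on both arrays. None was called. Uqcrb, a small subunit at the ubiquinone site, was lowest at -0.51 ± 0.19. Uqcrfs1, the Rieske iron-sulfur protein, gave -0.45 and -0.52 and lay at -0.48 ± 0.05. Uqcrc1, a core protein, was highest at -0.02 ± 0.30, its arrays lying on opposite sides of 0 at 0.20 and -0.23. Cyc1, the cytochrome c1 of this complex, does not carry one of the names and was at -0.25 ± 0.00.

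Complex IV held both the lowest and the highest members of the whole set at MXD 2W, around a median of -0.26 over 15 measured members. It had 5 down-regulated members: the muscle isoforms Cox6a2, Cox7a1 and Cox8b, described below, and the small subunits Cox6c and Cox7c. Cox6c had signals of 20778 in MXD against 37004 in VC on array 1 and 15980 against 24342 on array 2, a log2 fold of -0.72 ± 0.16. Cox7c gave -0.66 and -0.62 and lay at -0.64 ± 0.03. Its signals were far lower, at 879 in MXD against 1388 in VC on array 1 and 664 against 1021 on array 2. Cox4i1 and Cox5a, general subunits close to the catalytic core, were at -0.39 ± 0.20 and -0.26 ± 0.21. The 3 members with positive values on both arrays were all from this complex: Cox6b2, a testis isoform, at 0.46 ± 0.22, Cox8a at 0.40 ± 0.13 and Cox6a1 at 0.39 ± 0.04. None of these 3 passed the fold of 1.5 (log2 0.585). Cox6b2 was also dim, with 1165 in MXD against 762 in VC on array 1 and 918 against 746 on array 2.

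The 18 complex V members had a median of -0.34 at MXD 2W, with 14 below 0 on both arrays. Of the catalytic subunits, Atp5a1 was at -0.25 ± 0.12 and Atp5b nearer 0 at -0.09 ± 0.16. Another probe of Atp5a1 gave -0.15 ± 0.04, and other probes of Atp5b gave 0.30 ± 0.07, -0.08 ± 0.30 and -0.08 ± 0.13. Atp5c1, the gamma subunit of the rotor, was at -0.56 ± 0.25. The single call of complex V was the pseudogene Atp5c1-ps, at -0.73 ± 0.05. The probe of the pseudogene was not compared with the sequence of Atp5c1. It may detect transcripts of Atp5c1 on the array, so the source of that signal is uncertain. The 3 genes for subunit c, the ring that carries protons, were at -0.47 ± 0.07 for Atp5g1, -0.07 ± 0.29 for Atp5g2 and -0.21 ± 0.02 for Atp5g3. Atp5g1 was also below 0 on both arrays at MXD 1W (-0.35 ± 0.02), MXD 3W (-0.17 ± 0.00), N-CE 2W (-0.18 ± 0.01) and N-CE 3W (-0.17 ± 0.02). Atp5d, a subunit of the central stalk, was highest at 0.12 ± 0.36.

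**Figure D2:**
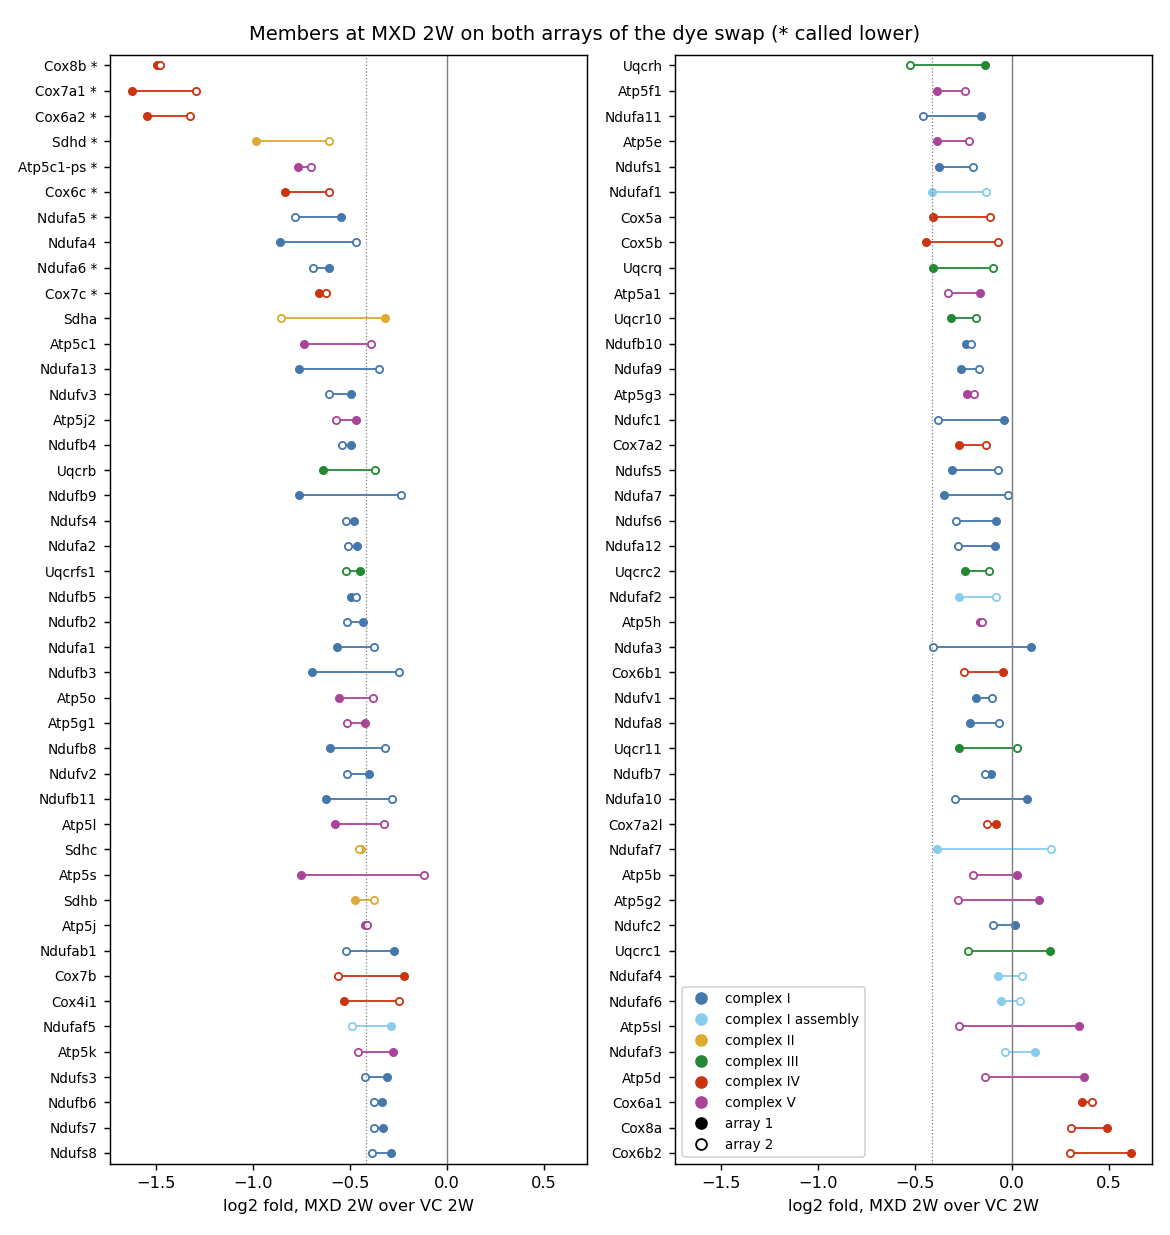
Log2 fold of measured members at MXD 2W over VC 2W, ordered by the mean of the arrays, with array 1 as a filled and array 2 as an open circle joined by a line and coloured by complex. The dotted line is the fold of 0.75, stars mark the 9 down-regulated members, and Cox8b, Cox7a1 and Cox6a2 lie well below Sdhd, the next member at -0.79.

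Cox6a2, Cox7a1 and Cox8b, the heart and skeletal muscle isoforms of subunits 6a, 7a and 8, were the lowest 3 of 89 members at MXD 2W. All of them lie on chromosome 7, where their probes were at chr7:135349160-135349219, chr7:30970337-30970948 and chr7:148084852-148084911 of mm9. Other members lie on that chromosome too, among them Cox6b1 and Cox6b2, which were not called. Cox6a2 had a signal of 38781 in MXD against 113154 in VC on array 1 and 31699 against 79401 on array 2, a log2 fold of -1.43 ± 0.16. Cox7a1, which is also known from brown fat, had 20661 against 63785 and 17375 against 42604, a log2 fold of -1.46 ± 0.23. Cox8b, likewise found in brown fat, had 22344 against 62911 and 18678 against 52087, a log2 fold of -1.49 ± 0.01. The MXD signal was thus below the VC signal on both arrays for all of them, at 0.370, 0.363 and 0.357 of the VC level.

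The general isoforms of the same subunits differed from them in the same hybridisations. Cox6a1 had 165542 in MXD against 129026 in VC on array 1 and 154119 against 115869 on array 2. Cox8a had 110124 against 78402 and 93804 against 76069. Cox7a2 had 36451 against 44104 and 27980 against 30662, a log2 fold of -0.20 ± 0.10. The muscle isoform minus the general one was -1.82 ± 0.12 for subunit 6a, -1.26 ± 0.13 for 7a and -1.88 ± 0.14 for 8, each much larger than the spread between the arrays. The 60-base probes of a pair shared runs of at most 6 bases, so the isoforms were measured by distinct sequences. The members without these 3 isoforms had a median of -0.32 at MXD 2W, with 80 of 86 below 0. Of these 86, 6 (6.98%) were down-regulated, below the share of 10.0% over all gene names.

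The muscle isoforms were below 0 at other times as well. At MXD 1W, Cox7a1 gave -0.82 and -0.61 and was the single down-regulated member, at -0.72 ± 0.15. Cox6a2 was at -0.58 ± 0.12 and Cox8b at -0.50 ± 0.08 without the P on both arrays. At MXD 3W, Cox6a2 gave -0.65 and -0.41, Cox7a1 -0.65 and -0.33, and Cox8b -0.49 and -0.45. They were again the lowest 3 members, and the next was Ndufb9 at -0.18. On array 1 alone, Cox6a2 and Cox7a1 would have been called at MXD 3W. At N-CE 2W they were the lowest 3 too, at -0.37 ± 0.23, -0.28 ± 0.30 and -0.27 ± 0.00 in the same order, though only just below Sdha. At N-CE 3W they lay at -0.39 ± 0.13, -0.22 ± 0.11 and -0.26 ± 0.07. At N-CE 1W they spread from -0.12 to 0.09, with 59 of 86 other members below the highest of them.

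The VC pool of a week was on the MXD arrays and on the N-CE arrays, which shows how far its signal differed between arrays. Its signal for the muscle isoforms was higher on the MXD arrays, after normalisation, by log2 0.20 to 0.41 in week 2 and by 0.16 to 0.38 in week 3, and differed by -0.01 to 0.08 in week 1. This difference is between arrays in the VC channel. A fold is a ratio of 2 channels on the same array, so the difference is not the error of a fold. The folds of these isoforms were -0.53 to -0.22 at MXD 3W, N-CE 2W and N-CE 3W, some no larger in size than that difference. At MXD 2W they were -1.49 to -1.43, all larger in size. Over all 89 members the median of the same difference was 0.02, 0.00 and -0.03 for these weeks in order 1, 2 and 3. Single members ranged from -0.59 to 0.64 in week 1, from -1.30 to 0.41 in week 2 and from -1.68 to 0.47 in week 3. For some members this difference between arrays was larger than most of the folds described here, without being the error of those folds. Cox7c, for example, had week 2 VC signals of 1388 and 1021 on the MXD arrays and 1330 and 3189 on the N-CE arrays. Its folds at MXD 2W were -0.66 and -0.62 on the 2 arrays.

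**Figure D3:**
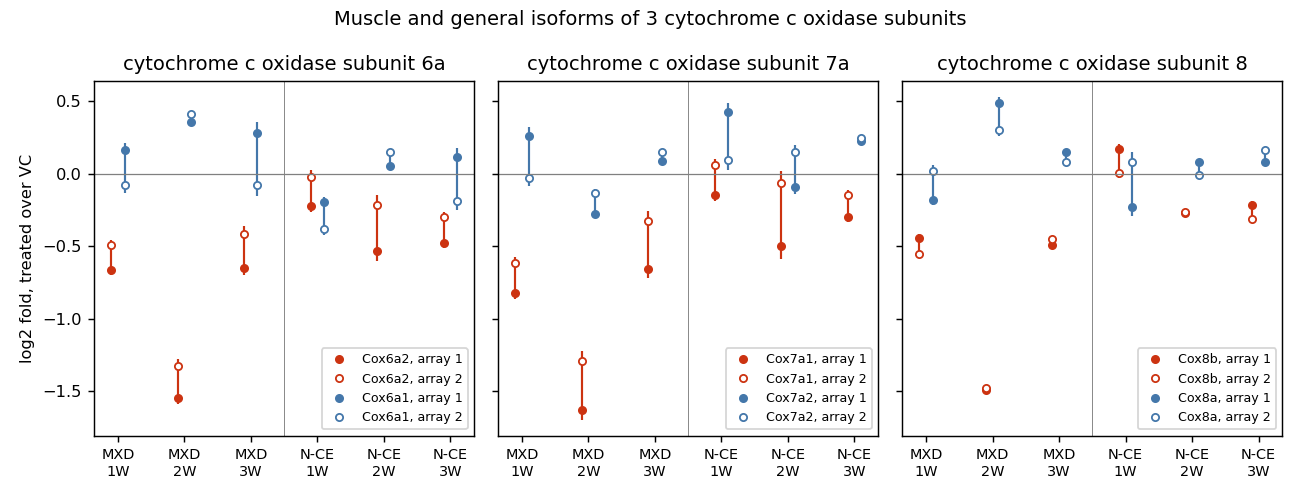
Log2 fold of the muscle isoform (red) and the general isoform (blue) of cytochrome c oxidase subunits 6a, 7a and 8 in each comparison, array 1 filled and array 2 open, with the line as mean ± SD over the 2 arrays. At MXD 2W the red points of each subunit lie between -1.63 and -1.29, and Cox6a1 and Cox8a lie above 0.

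At MXD 1W the medians of the complexes were nearer 0 than at MXD 2W, at -0.30 for complex II, again the lowest, -0.15 for V, -0.14 for I, -0.10 for IV with its muscle isoforms included and -0.09 for III. Ndufa10, an accessory subunit of complex I, was at -0.37 ± 0.12, while Cox6c lay above 0 at 0.12 ± 0.01. At MXD 3W the medians of the 5 complexes lay between -0.09 and 0.06, and apart from the muscle isoforms all members were between -0.18 and 0.20. Across the members that are not muscle isoforms, the values of MXD 1W and 2W were nearly unrelated (Pearson r = 0.02, n = 84 members), those of 1W and 3W gave 0.39 (n = 84) and those of 2W and 3W 0.22 (n = 86). These weeks have separate VC pools and may lie on separate slides, and genes are not independent replicates.

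In the N-CE pools the members stayed close to 0. At N-CE 1W the highest members were Cox6c at 0.41 ± 0.02, Ndufa6 at 0.31 ± 0.02 and Ndufa4 at 0.28 ± 0.13, and the lowest was Cox6a1 at -0.29 ± 0.13. Cox6c and Ndufa6, both down-regulated at MXD 2W, were thus above 0 on both arrays at N-CE 1W, and Cox6a1, above 0 at MXD 2W, was below 0 on both. At N-CE 2W, 34 of 35 complex I members had a mean below 0, but 19 of them were below 0 on both arrays and the median was -0.08. Complex II had the lowest median of the 5 complexes in that comparison (-0.19) and at N-CE 3W (-0.17). The highest member at N-CE 3W was the testis isoform Cox6b2 at 0.30 ± 0.13, followed by Cox7a2 at 0.24 ± 0.02.

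How well the dye swap repeated bears on these small values. Between the 2 arrays, Pearson's r over the members was 0.47 at MXD 1W (n = 87), 0.71 at MXD 2W (n = 89), 0.34 at MXD 3W (n = 89), 0.31 at N-CE 1W (n = 89), -0.49 at N-CE 2W (n = 86) and 0.16 at N-CE 3W (n = 81). Without the muscle isoforms it was 0.54 at MXD 2W and 0.03 at MXD 3W. At N-CE 2W the members that were low on array 1 tended to be high on array 2, and the medians of those arrays were -0.12 and -0.02. The mean was larger than its SD for 72 of 89 members at MXD 2W, for 53 of 87 at MXD 1W and for 27 of 86 at N-CE 2W. Of the 29 members with 2 or more measured probes at MXD 2W, 8 had probes of opposite sign, and no probe other than the brightest one of a gene was called. The members down-regulated at MXD 2W each had 1 probe, so no second probe bears on those calls. Ndufv2 had the widest range between its probes there, 0.85, beside a value of -0.46 for its brightest probe.

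**Figure D4:**
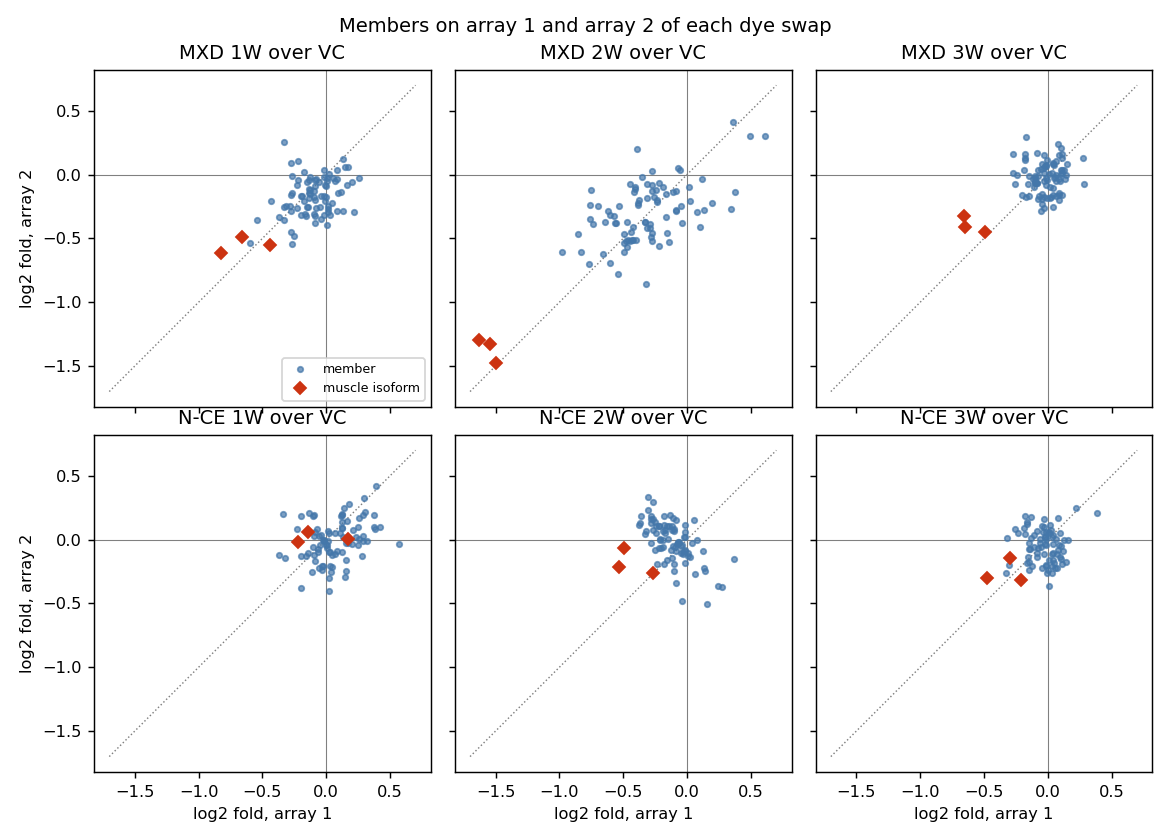
Log2 fold of each member on array 1 (x axis) and array 2 (y axis) of every comparison, with the dotted line marking equal values and the muscle isoforms as red diamonds. The members follow the line at MXD 2W (r = 0.71) and run across it at N-CE 2W (r = -0.49).

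Whether the mean of a member's 3 weekly log2 folds differed from 0 was tested with limma. The weeks stood in for replicates, with Benjamini-Hochberg adjustment over all probes. The test does not ask whether the fold differed between weeks. For MXD, 0 of 87 members had an adjusted p under 0.05, as did 0 of 25230 probes. The unadjusted p was under 0.05 for 7 members, all of them below 0, and for 10.3% of all probes. Cox7a1 had the lowest p of the members, with a mean log2 fold of -0.89 ± 0.21 (SE, n = 3 weeks), below 0 in 3 of 3 weeks, and an adjusted p of 0.463 by limma. Cox6a2 followed at -0.85 ± 0.21 and Cox8b at -0.82 ± 0.23, both with an adjusted p of 0.463 by limma. For N-CE, 0 of 81 members passed and 1, Cox6a2, had an unadjusted p under 0.05, against 1.99% of all probes. Its mean was -0.29 ± 0.09 (SE), with an adjusted p of 1.00 by limma. For the weekly differences of MXD minus N-CE, 0 of 79 members passed and 3 had an unadjusted p under 0.05, against 7.21% of all probes. These were Cox7a1 at -0.71 ± 0.20, Cox8b at -0.67 ± 0.21 and Cox6a2 at -0.55 ± 0.20 (SE), each with an adjusted p of 0.673 by limma.

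Other genes of mitochondrial energy supply were described from lists of known members. Of 20 genes of pyruvate entry and the citric acid cycle, which feeds the chain with NADH and succinate, 2 (10%) were down-regulated at MXD 2W and 0 up-regulated, the same share as the 10.0% down-regulated among all gene names. Those were Mpc1 (-0.86 ± 0.08) and Mpc2 (-0.79 ± 0.08), the partners of the mitochondrial pyruvate carrier. The median of the list was -0.41 at MXD 2W, -0.29 at MXD 1W, where all 20 lay below 0, and between -0.17 and -0.01 in the other comparisons. Of 16 genes of fatty acid oxidation, 5 (31.2%) were down-regulated at MXD 2W, among them the muscle carnitine transferase Cpt1b (-1.40 ± 0.07) and the muscle fatty acid binding protein Fabp3 (-1.05 ± 0.31). The liver form Cpt1a was at 0.56 ± 0.43 in the same hybridisations. Of 12 carriers and pores, 4 (33.3%) were down-regulated: Ckmt2, the creatine kinase of muscle mitochondria, at -1.56 ± 0.09, Slc25a4, the ADP/ATP carrier used in muscle, at -1.28 ± 0.50, the aspartate and glutamate carrier Slc25a12 at -0.99 ± 0.08 and the outer membrane pore Vdac1 at -0.59 ± 0.03. Slc25a5, the more general ADP/ATP carrier, was at 0.52 ± 0.13.

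Of 7 electron carriers and entry enzymes, Gpd2, the glycerol phosphate dehydrogenase of the inner membrane, was the single call (14.3% of the list) at MXD 2W (-0.97 ± 0.01) and at MXD 1W (-0.67 ± 0.14), and cytochrome c (Cycs) was at -0.58 ± 0.26. Of 16 regulators of mitochondrial biogenesis, 2 (12.5%, beside 10.0% of all gene names) were down-regulated at MXD 2W, Esrrg (-1.18 ± 0.22) and the adipocyte regulator Pparg (-0.92 ± 0.20). Ppargc1a, a coactivator of mitochondrial genes, was at -0.03 ± 0.18, Esrra at -0.18 ± 0.10, Nrf1 at 0.46 ± 0.19 and Tfam at 0.11 ± 0.05. The 14 assembly factors of complexes II to V had a median of -0.02 with 0 calls, near that of the complex I assembly factors. The array named 4 subunits encoded in the mitochondrial genome, with a median of -0.47 at MXD 2W that rested on array 2 (-0.02 and -0.91 on the arrays), so the arrays differed by more than the value itself.

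Markers of cell types moved in the same comparisons. Of 26 skeletal muscle markers, 24 were measured at MXD 2W, with a median of -1.44, 21 of them down-regulated and 1, Tnni1, up-regulated. Their summed signal was 672051 and 407096 in MXD against 1629370 and 1238780 in VC, a ratio of 0.412 and 0.329 on the 2 arrays. The slow and cardiac markers Myh7 and Myl2 were not above background there. In the other comparisons the muscle median lay at -0.62 (MXD 1W), -0.44 (MXD 3W), -0.19 (N-CE 1W), -0.41 (N-CE 2W) and -0.36 (N-CE 3W). The muscle markers were not uniform. At MXD 1W, 21 of 25 lay below 0, 14 were down-regulated and 1, Myh2 (0.79), was up-regulated. At N-CE 1W, 19 of 25 lay below 0 and 4 were down-regulated. The summed signal of the 92 members was 0.785 and 0.822 of VC at MXD 2W. Adipocyte markers had a median of -0.57 at MXD 2W, with 6 of 11 down-regulated and a summed signal of 0.682 and 0.680 of VC. Hair shaft markers, including those of the inner root sheath, had a median of 1.27, with 14 of 14 up-regulated. Proliferating cell markers had one of 0.91, with 6 of 9 up-regulated. Leukocyte markers had a median of -0.49, with 9 of 10 below 0, 4 down-regulated and 1 up-regulated. Their summed signal was 0.564 and 0.604 of VC. Markers of epidermis (median -0.31, 3 of 8 down-regulated, 1 up-regulated) and vessels (-0.33, 2 of 7 and 0) were mixed. The summed signal was 0.821 and 0.534 of VC for epidermis and 1.16 and 1.05 for vessels. At N-CE 1W the hair shaft markers had a median of -2.45, with 14 of 14 down-regulated, while the members had a median of 0.00. The part of these cell types in the members' values was not tested.

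**Figure D5:**
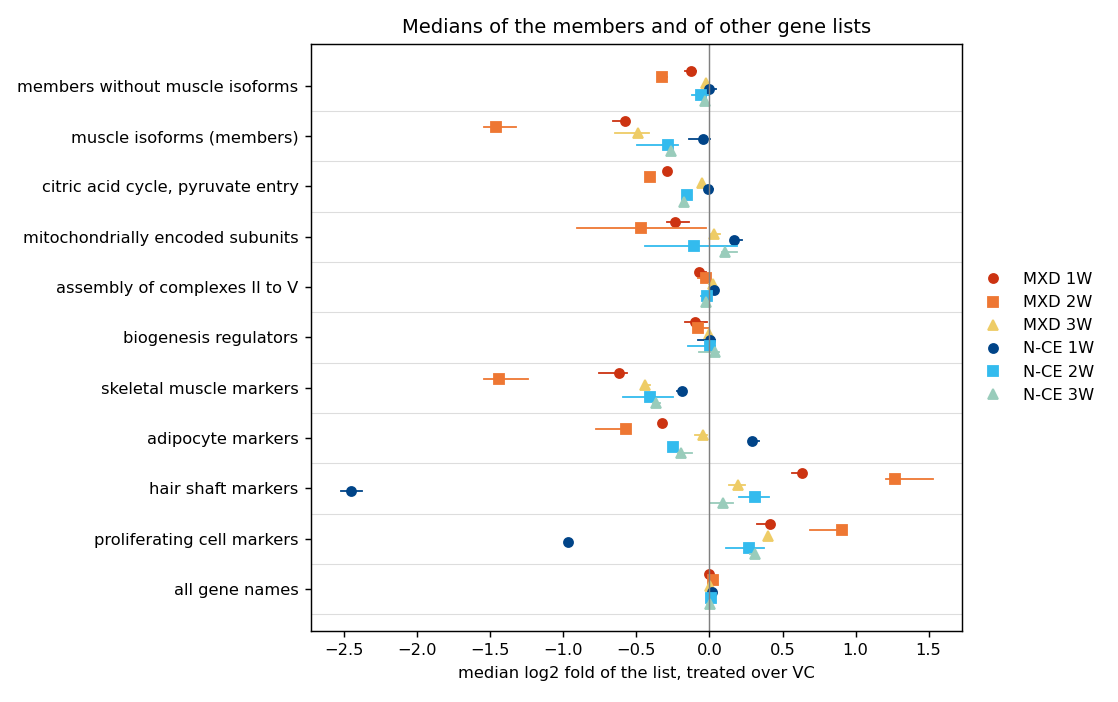
Median log2 fold of the members without the muscle isoforms, of the 3 muscle isoforms, of other mitochondrial lists, of cell type markers and of all gene names in the 6 comparisons (symbols), with a line between the medians of the 2 arrays. The muscle isoforms lie at -1.46 at MXD 2W beside skeletal muscle markers at -1.44, the other members lie at -0.32, and all gene names lie at 0.03.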

How the data were processed

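Per the labels and the file headers, the authors hybridised pooled RNA of whole back skin to 2-colour Agilent arrays and deposited the output of Feature Extraction, recorded as version 12.0.3.1 in the files and 11.0.1.1 in the submitters' processing notes. Positions of probes are on mm9. The deposited log10 ratio of Cy5 over Cy3 follows the authors' background subtraction and LOWESS dye normalisation, which centres each array, so a shift shared by most genes would not be seen. The deposited p-value comes from the authors' error model for a spot. The authors also deposited signal intensity per channel and flags for spots above background or marked as outliers. The series matrix was deposited as log10 ratios and equals the ratio of processed intensities at 43379 spots within 1e-05.

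Control and marked spots were left out, ratios were turned to treated over VC in log2, and spots of a probe were averaged. The brightest probe over 12 arrays stood for a gene. A gene was measured where at least 1 group was well above background. The folds of 1.5 and 0.75 and the P of 0.01 are those of the study. Fits used limma 3.58.1 under R 4.3.3, and other steps pandas 2.3.3 and numpy 2.4.6 under Python 3.11.15. The calls and the fits were tested on simulated data. At a simulated log2 shift of 1.5 the fits recovered 60 of 100 features for MXD and 70 of 100 for N-CE. At a shift of 3 they recovered 90 and 91 of 100, with 3 and 4 false calls in the 2 fits. The largest mean of a member, -0.89 for Cox7a1 with MXD, was smaller in size than either shift, so 0 passing members does not show absence of change. Members were named by a rule: listed isoforms, core subunits, the highest and lowest member of each complex in each comparison, and called members. Other members are named where a count or a just missed call needed it, after their values were seen, and 1 member is not reported singly here. The members, lists and motifs were chosen with earlier results of these data known. No separate cultures or animals stand behind the 2 arrays of a comparison.

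Alternatives were normexp with an offset of 50 and loess, centred arrays, other filters and folds, all probes, the matrix values, and each array or week left out.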

Additional observations from a re-analysis of the deposited data

Results flagged for a closer look

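The median of complex V differed in direction between comparisons, on both arrays of each. It was -0.15 at MXD 1W and 0.06 at N-CE 1W, a difference of -0.215, and these comparisons share the VC pool. It was 0.128 higher at N-CE 1W than at N-CE 2W (-0.07) and 0.0811 higher than at N-CE 3W (-0.02). At N-CE 1W the median of complex V was 0.12 on array 1 but 0.0028 on array 2, where all gene names had a median of 0.0119. The positive direction at N-CE 1W thus rested mainly on array 1. The differences between comparisons were not tested.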

How the results depend on the processing

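Of 234 alternative values over the members, 18 moved by more than the spread between arrays or, for counts, by over 1.5 times. The median at N-CE 1W (-0.0011) was on the other side of 0 with normexp (0.0122) and on array 1 alone (0.0357). For the median at MXD 2W (-0.34), centred arrays gave -0.37, all probes of the member genes -0.26, subunits only -0.35, leaving out the muscle isoforms -0.32, and single arrays -0.33 to -0.32. Single arrays gave medians of -0.0283 to -0.0175 at MXD 3W, -0.0076 to 0.0357 at N-CE 1W and -0.118 to -0.017 at N-CE 2W. The 9 members called lower at MXD 2W became 35 by folds alone, 3 with a P under 0.001, and 13 to 21 on single arrays, where 0 to 1 were called higher. The 1 call at MXD 1W became 5 by folds alone, 0 with a P under 0.001 and 0 without the muscle isoforms, and 3 on each single array (3 to 3). At MXD 3W, folds alone gave 3 and single arrays 0 to 2. Over all gene names, folds alone gave 4125 of 18752 lower at MXD 2W, 1356 of 18552 at MXD 1W and 524 of 17412 at MXD 3W. For the counts of members the alternative's own rule sets the difference, since the call needs both arrays and a P. For the medians the cause was not tested. In the limma fits, 0 members passed under every alternative listed, with the lowest adjusted p between 0.0695 and 1.00. Of 915 alternative values for single genes, 23 moved by more than the SD over arrays, and 0 values of called genes changed sign. Each fold pairs treated with VC on the same array. No further pairing was possible, because each group and week was 1 pool and the labels number no replicates. The limma fit of MXD minus N-CE was matched by week, with the shared VC pool, and not by replicate. With 2 arrays per comparison and 1 pool per group, differences between mice could not be measured. The 89 measured members were well above background, though Cox7c and Cox6b2 had far lower signals than the other members whose signals are given.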
